A study of Mus musculus with 3 samples.

Results

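The forkhead transcription factors share a winged-helix DNA-binding domain, and 10 of them were followed here in mouse regulatory T cells: Foxo1, Foxo3, Foxo4, Foxp1, Foxp4, Foxk1, Foxk2, Foxn3, Foxj2 and Foxj3. They were picked by symbol from 55536 mouse genes in the deposited gene table, which holds 44 forkhead genes in all. Foxp3, the forkhead factor that defines regulatory T cells, is not among the 10 and serves as a reference. All 10 identifiers matched the GENCODE M21 annotation of mouse genome build mm10.

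Regulatory T cells are CD4 T cells that hold immune reactions in check, and their polyadenylated RNA was sequenced in 3 libraries. The labels describe the donor as an adult male mouse, 4 months of age, of a Foxp3CreERT2 x Rosa26YFP strain, and place the origin of the primary cells in the bone marrow haematopoietic lineage. In such a strain the Foxp3 locus drives a tamoxifen-inducible Cre and the Rosa26 locus carries a yellow fluorescent reporter, and whether tamoxifen was given is not stated in the labels. All 3 libraries are technical replicates 1, 2 and 3 of biological replicate 1, and are named here by that number. They form 1 group, so no treated, mutant or control group exists, and every difference below is between libraries and not between conditions.

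FOXO proteins activate genes of quiescence, homing and cell survival until the kinase AKT, downstream of PI3K, phosphorylates them and 14-3-3 proteins hold them in the cytoplasm. In T cells FOXO1 is known for driving Il7r and Klf2, and in regulatory T cells for supporting Foxp3. FOXP proteins form dimers with one another and repress genes together with CtBP and NuRD corepressors, and FOXP1 is known for keeping T cells quiescent. FOXK proteins bind SIN3A and the deubiquitinase BAP1, FOXN3 is a repressor linked to cell cycle checkpoints, and FOXJ2 and FOXJ3 are less studied in T cells.

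What the proteins have in common is the recognition helix of the forkhead domain, which lies in the major groove of DNA. The 33 coding bases that encode it are shown for 8 members, from the M21 transcript sequences. They show how far the branches of the family differ in the bases of the annotated transcripts. Each line names the transcript used, the sequence runs 5′ to 3′ on the coding strand, and capitals mark bases that differ from Foxo3.
Foxo3-203: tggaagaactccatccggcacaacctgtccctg
Foxo4-201: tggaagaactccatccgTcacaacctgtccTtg
Foxp4-204: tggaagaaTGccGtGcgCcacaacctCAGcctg
Foxk1-201: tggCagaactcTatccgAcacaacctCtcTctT
Foxk2-201: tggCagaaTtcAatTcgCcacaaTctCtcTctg
Foxn3-201: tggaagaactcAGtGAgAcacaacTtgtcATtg
Foxj2-202: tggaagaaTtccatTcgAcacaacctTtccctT
Foxj3-202: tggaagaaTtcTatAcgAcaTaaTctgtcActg
The other 7 differed from Foxo3 at 2 to 8 of these bases, fewest in Foxo4. At the level of the encoded residues Foxo4, Foxj2 and Foxj3 did not differ from Foxo3 at all. Foxk1, Foxk2 and Foxn3 each differed at 1 residue and Foxp4 at 2. In each of the 8 but Foxn3 an intron interrupts this stretch in the genome. Among 21526 genes with a complete coding sequence in the annotation, 34 hold a stretch of this pattern, and 33 of them carry a forkhead symbol. The pattern searched admits the variants of these members, and not all of the 44 forkhead genes were found to hold it.

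The FOXO branch is set apart by its AKT consensus, Arg-x-Arg-x-x-Ser or Thr. The stretches that encode it in Foxo1, Foxo3 and Foxo4 are shown because they are the sites through which PI3K signalling acts on these proteins, with the codon of the Ser or Thr in capitals.
Foxo1 site 1: cggcagcgctcctgtACC
Foxo3 site 1: cggccacgctcctgtACG
Foxo4 site 1: cgtccgcgatcctgcACC
Foxo1 site 2: cggagaagagctgcgTCC
Foxo3 site 2: cggcggcgtgcggtcTCC
Foxo4 site 2: cgccgcagggctgccTCC
Foxo1 site 3: cgtcctcgaaccagcTCA
Foxo3 site 3: cgctcgcgcaccaatTCC
Foxo4 site 3: cgtccacgaagcagtTCA
In Foxo1 they begin at coding bases 55, 742 and 931, in Foxo3 at 79, 739 and 925, and in Foxo4 at 79, 574 and 769, counted from the A of the start codon. Foxk1 and Foxn3 held 1 match each and the other 5 members none. Of all complete coding sequences 22.7% held at least 1 match and 2.07% held 3 or more, so a single match is a common occurrence.

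Expected counts over all genes totalled 9299013 in library 1, 9188579 in library 2 and 8284324 in library 3. Defining genes of the labelled cell type were present in each, with summed levels of 2882 to 3156 TPM (a transcript level per length, scaled to a common total in every library) for 6 regulatory T cell markers and 5941 to 6519 TPM for 4 T cell markers. Markers of other cells were lower in sum, and some moved between libraries. Gene by gene the levels overlapped. The erythroid Hba-a2 and Hbb-bs had means of 395 and 357 TPM. These were above Il2ra at 304, Ctla4 at 217 and Foxp3 at 39.4, and below Izumo1r, Tnfrsf18 and Ikzf2. Cd79b of B cells, at 76.9, and Jchain of plasma cells, at 60.9, were also above Foxp3. The 5 erythroid markers summed to 1681, 9.02 and 1495 TPM in libraries 1, 2 and 3, and 4 plasma cell markers to 147, 21.8 and 196 TPM. B cell markers, 5 in number, summed to 149, 116 and 192 TPM. The 3 macrophage and monocyte markers summed to 15.3 to 35.8 TPM, the 2 CD8 T cell markers to 15.97 to 21.41 TPM, and the 3 neutrophil markers to 34.0, 0 and 2.59 TPM, with Ngp, S100a8 and S100a9 listed at 0 in library 2. Their part in the levels of the forkhead genes was not tested. These are bulk libraries, in which fewer cells of a type and less RNA per cell cannot be told apart.

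Every one of the 10 forkhead genes was detected, at 1 TPM or more in each library, and the ratio of the highest, Foxp1, to the lowest, Foxp4, was 124 ± 34.5 (SD, n = 3). Foxp1 stood above 94.9% of the 10120 detected protein-coding genes, Foxn3 above 85.2% and Foxo1 above 58.5%. The other 7 were in the lower part of the distribution, from Foxk1 above 31.2% down to Foxp4 above 3.11%. The median of the 10 means was 7.48 TPM, beside 20.1 TPM over all detected protein-coding genes. In the order of the means, the ranges over the libraries did not overlap from Foxp1 to Foxn3, from Foxn3 to Foxo1 and from Foxo1 to Foxk1. They overlapped between Foxk1 and Foxj3, Foxj3 and Foxj2, and Foxj2 and Foxo3, the 4 genes in the middle of the order. Within each library, Foxk1 and Foxj3 both exceeded Foxo3. The ranges overlapped again between Foxo4 and Foxk2.

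**Figure D1:**
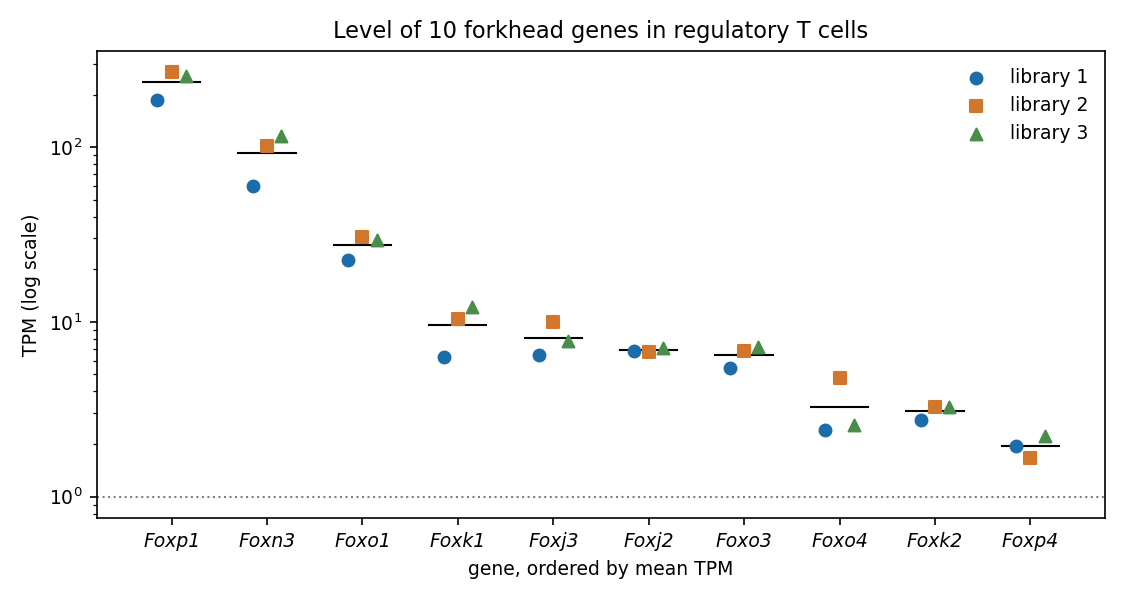
Level of each gene in TPM on a log axis, for the 3 technical replicate libraries (points) with their mean (black line) and 1 TPM as a dotted line. Foxp1, Foxn3 and Foxo1 stand apart from the rest in every library. Library 1 gives the lowest point for 8 of the 10 genes, a count with no share over all genes beside it.

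Among the FOXO genes, Foxo1 (ENSMUSG00000044167.6, mm10 chromosome 3, 52268336 to 52353221, plus strand), the main FOXO factor of T cells, had 22.5, 30.75 and 29.32 TPM in libraries 1, 2 and 3 (mean 27.5 ± 4.41, SD, n = 3). Library 1 was the lowest of the 3 on this scale. Its counts of 1543, 1795 and 1548 did not pass the test between libraries with TMM-scaled totals (adjusted p = 0.115). They passed it with unscaled totals (adjusted p = 3.44e-05) and with totals scaled within bins of gene length (8.93e-07). Foxo3 (ENSMUSG00000048756.11, chromosome 10, 42181841 to 42276755, minus strand), which activates genes of apoptosis and oxidative stress defence, had 5.42, 6.82 and 7.16 TPM (6.47 ± 0.922). It gave 287, 308 and 297 counts, with the smallest chi-square value of the 10 genes and an adjusted p of 0.619. Foxo4 (ENSMUSG00000042903.8, chromosome X, 101254528 to 101260873, plus strand), the X-linked member, had 2.42, 4.75 and 2.56 TPM (3.24 ± 1.31), from 56, 95 and 45 counts. Library 2 was the high one, at a ratio of 1.88 to library 3 in scaled counts (95% exact binomial interval 1.31 to 2.75), and the gene differed between libraries (adjusted p = 0.00144). The remaining FOXO gene, Foxo6, had no count in any library.

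The make-up of the FOXO family was steadier than the levels. Foxo1 gave 74.2%, 72.7% and 75.1% of the TPM of the 3 genes (74.0% ± 1.23), Foxo3 17.4% ± 1.17 and Foxo4 8.59% ± 2.39. The ratio of Foxo1 to Foxo3 was 4.15, 4.51 and 4.09, and that of Foxo1 to Foxo4 ranged from 6.47 to 11.5. Foxo1 led in every library by more than the spread between them.

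In the FOXP family, Foxp1 (ENSMUSG00000030067.17, mm10 chromosome 6, 98925338 to 99522721, minus strand) was the highest forkhead gene of these cells, with 186.04, 269.14 and 253.8 TPM in libraries 1, 2 and 3 (236 ± 44.2, SD, n = 3). Foxp3 had 27.56, 43.66 and 47.12 TPM. Foxp1 exceeded it 6.75-, 6.16- and 5.39-fold, with no overlap of the ranges. Foxp4 (ENSMUSG00000023991.16, chromosome 17, 47867133 to 47924645, minus strand), best known from lung and gut development, had 1.96, 1.66 and 2.21 TPM (1.94 ± 0.275), the lowest of the 10. Foxp2, best known for its part in speech and brain circuits, had 0.14, 0.21 and 0.09 TPM and 3, 8 and 3 counts, and was not detected. Of the summed TPM of Foxp1, Foxp3 and Foxp4, Foxp1 took 85.2% ± 1.33, Foxp3 14.1% ± 1.39 and Foxp4 0.722% ± 0.191.

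The counts of Foxp1 and of Foxp4 both differed between libraries, by very different amounts. Foxp1 had 3963, 4129 and 3929 counts, and the highest scaled count was 1.07 times the lowest (adjusted p = 0.0265). Foxp4 had 52, 34 and 27 counts, and library 1 was the high one, at 1.84 times library 3 (interval 1.14 to 3.05, adjusted p = 0.0244). Its TPM did not follow its counts, since library 3 had the highest TPM and the lowest count. That mismatch went with the transcripts to which the counts were assigned, described below.

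Exons of Foxp1 also overlap another annotated gene. Gm20696, a protein-coding gene on the same strand, was assigned 304, 378 and 414 counts, so the division of reads between it and Foxp1 is uncertain. Foxj2 shares exon positions with an antisense gene, Gm26826, that had 3, 4 and 2 counts, and Foxo1 with antisense Gm20402, which had none. No source used here says if the counting took account of strand.

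In the FOXK pair, Foxk1 was the higher gene. With TMM-scaled totals Foxk1 differed between libraries and Foxk2 did not pass the test. Scaled within bins of gene length, Foxk2 passed it too (adjusted p = 0.0158). Foxk1 (ENSMUSG00000056493.9, mm10 chromosome 5, 142401497 to 142462011, plus strand), a SIN3-binding repressor of autophagy genes, had 6.27, 10.41 and 12.18 TPM in libraries 1, 2 and 3 (9.62 ± 3.03, SD, n = 3). Its counts were 368, 520 and 550. Library 1 was low against both others, with scaled counts 0.760 times library 2 (interval 0.664 to 0.871) and 0.641 times library 3 (0.560 to 0.732). With TMM-scaled totals the adjusted p of Foxk1, 1.56e-09, was the smallest among the 10 genes. Within bins of gene length its adjusted p was 0.0256 and was not the smallest. Foxk2 (ENSMUSG00000039275.9, chromosome 11, 121259990 to 121309896, plus strand), its paralogue, had 2.76, 3.27 and 3.24 TPM (3.09 ± 0.286), from 108, 109 and 81 counts (adjusted p = 0.311). Foxk1 took 69.4%, 76.1% and 79.0% of the pair's TPM, and was above Foxk2 in every library.

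Foxn3 (ENSMUSG00000033713.12, mm10 chromosome 12, 99190078 to 99563582, minus strand), the checkpoint-linked repressor, was the second highest forkhead gene. It had 59.64, 101.48 and 115.5 TPM in libraries 1, 2 and 3 (92.2 ± 29.1, SD, n = 3), and library 1 was low. Its 2741, 3150 and 2911 counts put library 1 at 0.935 times library 2 (interval 0.888 to 0.984) and 0.902 times library 3 (0.8554 to 0.9502) after scaling, an adjusted p of 0.0012. The related Foxn2 had 21.98, 27.23 and 28.73 TPM, so that Foxn3 exceeded it 2.71-, 3.73- and 4.02-fold.

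The FOXJ genes stood close together. Foxj3 (ENSMUSG00000032998.16, mm10 chromosome 4, 119537004 to 119629119, plus strand), known in muscle as an activator of Mef2c, had 6.5, 9.97 and 7.8 TPM (8.09 ± 1.75, SD, n = 3) from 218, 251 and 197 counts, which did not pass the test (adjusted p = 0.487). Foxj2 (ENSMUSG00000003154.15, chromosome 6, 122819914 to 122845366, plus strand) had 6.84, 6.68 and 7.1 TPM (6.87 ± 0.212). The even TPM of Foxj2 came with uneven counts, 249, 208 and 198, of which library 1 was the high one at 1.29 times library 2 (interval 1.07 to 1.55, adjusted p = 0.0369). The order of the pair was not the same in each library, and Foxj2 took 51.3%, 40.1% and 47.7% of their TPM.

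Foxp3 had a mean of 39.4 TPM, below only Foxp1 and Foxn3 among the members. Foxn2 had a mean of 25.98 TPM, below these and Foxo1. They were the only other 2 of the 44 forkhead genes detected by the same rule, and 32 were not detected. Foxm1, the proliferation-linked member, came closest with 0.84, 1.53 and 2.37 TPM. Of the undetected genes 22 had no count in any library, and apart from Foxm1 none had more than 14 counts over the 3 libraries. Counts of 0 allow up to 0.323, 0.326 and 0.362 CPM (counts scaled to the library total) in libraries 1, 2 and 3. All forkhead genes summed to 463 ± 96.4 TPM, and the 10 members gave 85.4% ± 0.512 of that sum. Foxp1 alone gave 51.2% ± 2.11 and Foxn3 19.6% ± 2.64.

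The spread between the libraries was tested gene by gene on counts, over all genes with 30 or more. By this test 6 of the 10 forkhead genes differed between libraries: Foxp1, Foxn3, Foxk1, Foxj2, Foxo4 and Foxp4. Of all 13071 genes tested 54.5% did, so a share of 6 in 10 is near the background and is not a result about forkhead genes. Called with library 1 lowest were 2 members, Foxn3 and Foxk1, where 23.9% of all genes were. Called with library 1 highest were 2 others, Foxj2 and Foxp4, where 24.2% of all genes were. The ratio of highest to lowest scaled count exceeded 1.5 in 3 members, Foxo4, Foxp4 and Foxk1.

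These calls rested on single libraries in part. Without library 1 the test called Foxo4, Foxp1 and Foxk1, beside 17.2% of all genes. Without library 2 it called Foxk1, Foxn3 and Foxp4, beside 49.3%. Without library 3 it called Foxj2, Foxk1, Foxo4 and Foxp4, beside 46.5%. Foxk1 was called in each of these 3 runs, while Foxp1, Foxn3 and Foxj2 were each called in 1 of them.

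The ratio of library 1 to the mean of libraries 2 and 3 was lower in TPM than in scaled counts for all 10 members. In scaled counts the ratio was below 1 for 7. No share over all genes stands beside these 2 counts, so they are not a result about forkhead genes. It was 0.712 in TPM and 0.997 in scaled counts for Foxp1, and 0.550 against 0.918 for Foxn3. For Foxk1 it was 0.555 against 0.695. When counts were scaled within 20 bins of effective gene length, in place of over all genes, 9 of the 10 members differed between libraries, beside 44.6% of all genes. Foxo3 was the exception, at an adjusted p of 0.0653. Set against genes of like length in this way, library 1 was the highest of the 3 for 8 members, a count with no share over all genes beside it. Of the 10 members, 7 were called with library 1 highest, beside 18.8% of all genes. The deviation of library 1 from the mean of the libraries ranged on this scale from -0.13 (log2) in Foxk1 to 0.55 in Foxp4, and was 0.15 in Foxo1 and 0.11 in Foxn3. The direction of library 1 for Foxo1 and Foxn3 thus turned with the scaling, from the lowest of the libraries over all genes to the highest within bins of length.

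**Figure D2:**
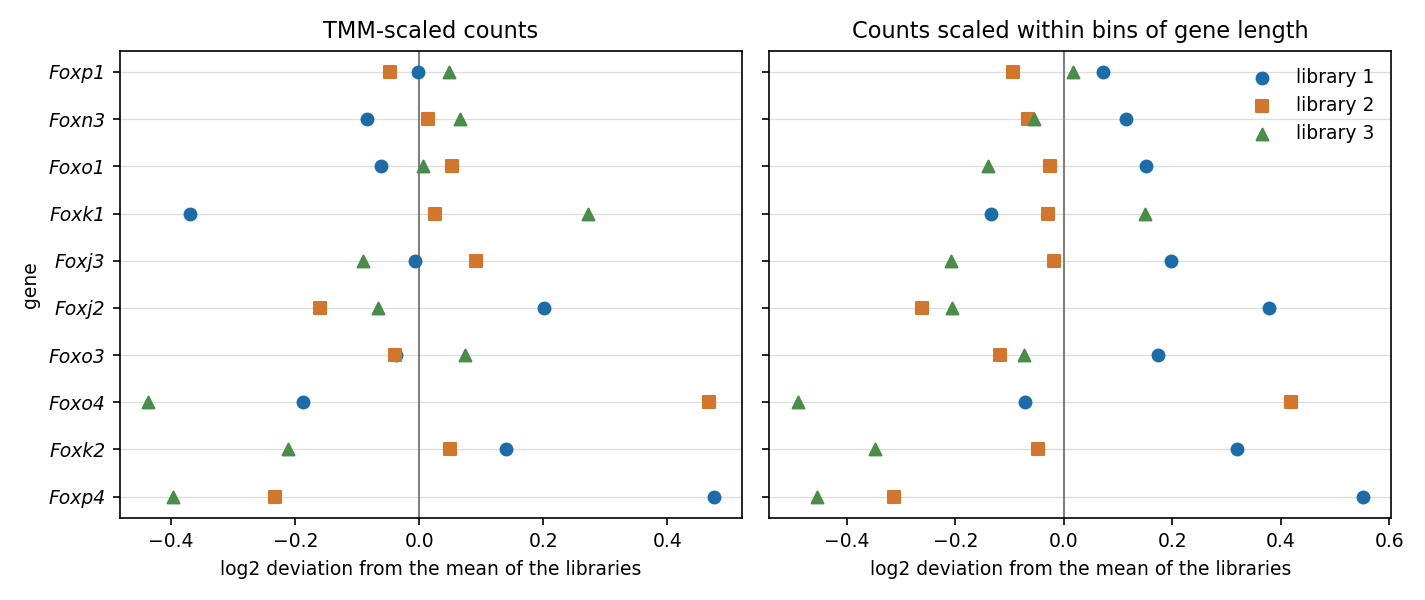
Log2 deviation of each library from the mean of the 3 libraries for the 10 genes, in counts scaled by TMM over all genes (left) and in counts scaled within bins of gene length (right). Library 1 lies on both sides of 0 in the left panel. In the right panel it is the highest point for 8 of 10 genes, a count with no share over all genes beside it.

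Transcripts divided the members into genes with a single main product and genes with a mixture. Foxo1 has 1 annotated transcript, and in Foxk1 1 of 2 took all of the gene's TPM. Foxo3-203 took 98.7% ± 1.17, Foxo4-201 94.4% ± 1.91, Foxk2-201 93.7% ± 10.9 and Foxj2-202 90.7% ± 2.93 of their genes. Each of these main transcripts encodes a complete protein with the recognition helix. The other 4 genes, Foxp1, Foxn3, Foxj3 and Foxp4, were mixtures.

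Foxp1 was the most divided, with 31 annotated transcripts, 13 of them with a complete coding sequence. Foxp1-228, a transcript of 2121 bases, led with 22.3%, 18.3% and 17.1% of the gene in libraries 1, 2 and 3. Foxp1-218, a fragment of 607 bases with an incomplete coding sequence, followed with 17.4%, 19.1% and 20.6% and exceeded Foxp1-228 in libraries 2 and 3. Foxp1-204, of 7177 bases, took 10.6%, 14.6% and 14.7%. Complete coding transcripts together gave 49.5% ± 5.27 and retained introns 16.2% ± 2.67, so that about as much of the gene's level lay in incomplete or untranslated models as in full ones. Foxp1-204 and Foxp1-206 differ by an in-frame exon of 96 bases, chr6:99075950-99076045 (mm10, minus strand), which is shown because its CAG-rich run encodes part of the glutamine-rich region of the protein and because the share of Foxp1-206 differed between libraries.
Foxp1-204 only: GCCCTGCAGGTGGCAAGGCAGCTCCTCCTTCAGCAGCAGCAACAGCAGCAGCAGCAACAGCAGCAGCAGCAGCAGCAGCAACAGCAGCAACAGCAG
The label sets Foxp1-204 against Foxp1-206 alone, and the leading Foxp1-228 holds this exon too. Foxp1-206, which lacks this exon, took 13.6%, 3.87% and 6.80% of the gene in libraries 1, 2 and 3. In library 1 it was above Foxp1-204, and in libraries 2 and 3 it was below.

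Foxn3-201, a complete coding transcript of 7705 bases, took 71.0%, 50.7% and 46.6% of Foxn3 in libraries 1, 2 and 3. Library 1 was high for this longest form. The retained-intron transcript Foxn3-213 took 13.6% ± 2.58 and Foxn3-214, of 405 bases, 8.85% ± 2.66. Foxn3-202, of 2611 bases, took 12.3% ± 5.53, and its coding length of 1371 bases is that of Foxn3-201.

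In Foxj3 the main transcript was not the same in each library. Foxj3-202 took 83.9%, 22.0% and 76.2%, while Foxj3-201 took 0%, 43.5% and 0%. They differ in the coding sequence by 1 in-frame exon of 102 bases, chr4:119609990-119610091 (mm10, plus strand), shown because it is the coding difference between the 2 forms.
Foxj3-201 only: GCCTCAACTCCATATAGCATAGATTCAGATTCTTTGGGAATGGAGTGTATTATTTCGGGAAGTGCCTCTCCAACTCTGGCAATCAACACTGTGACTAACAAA
Foxj3-208, a retained-intron model, took 11.7% ± 4.14. The whole gene had 197 to 251 counts per library, which limits the precision of these shares.

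Foxp4 was split between a full coding form and a fragment. Foxp4-204 took 84.4%, 67.5% and 45.6% in libraries 1, 2 and 3, and Foxp4-206, a retained-intron model of 579 bases, took 15.7%, 21.8% and 54.3%. The short model counts for more TPM per read, and library 3, where its share was highest, gave the highest TPM of the gene from the fewest counts. These shares rest on 27 to 52 counts per library.

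**Figure D3:**
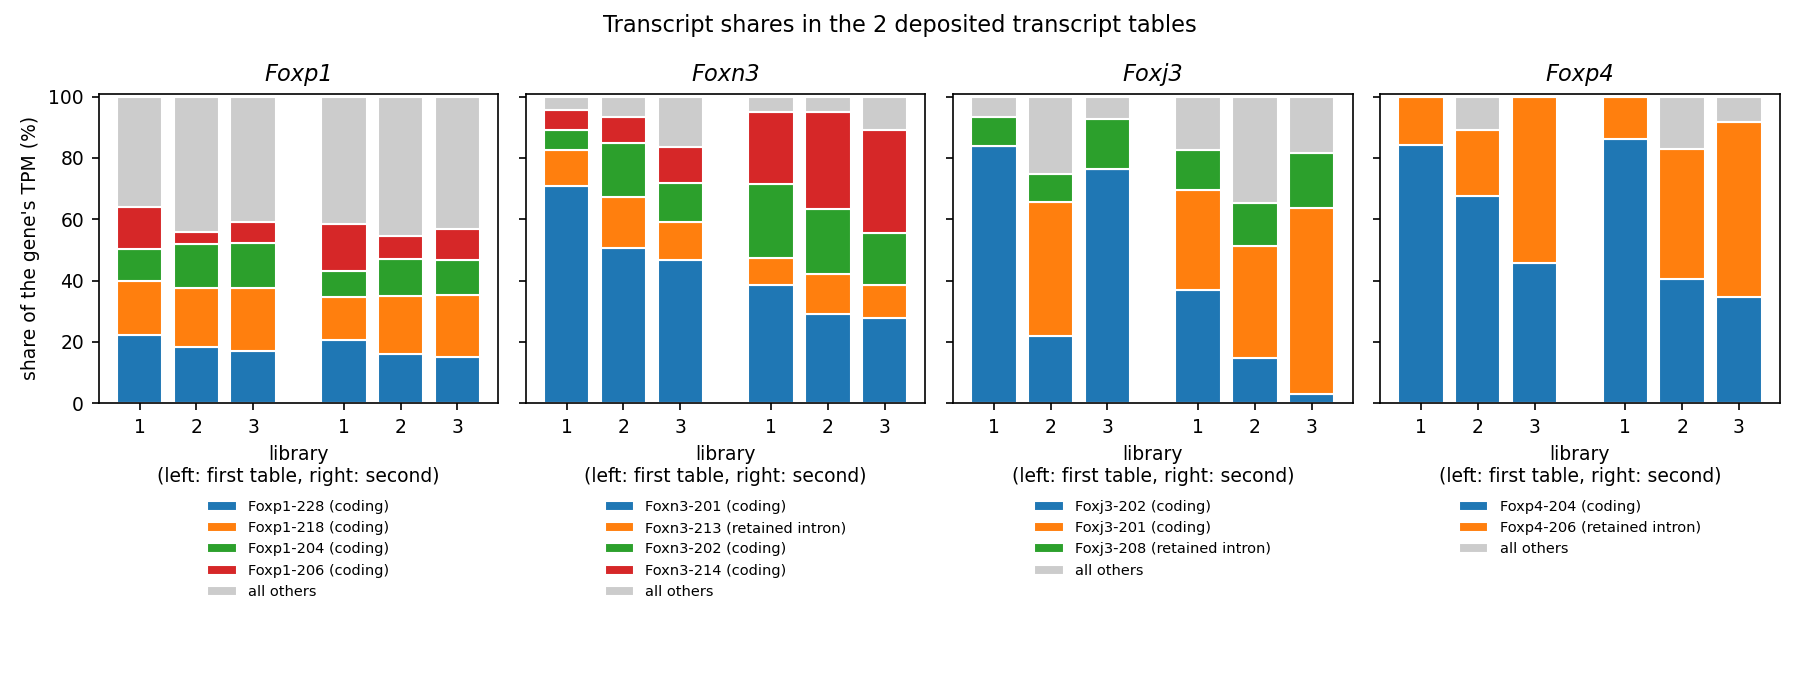
Share of each gene's TPM taken by its transcripts, stacked to 100%, in libraries 1, 2 and 3 of the first transcript table (left bars) and of the second (right bars). Colours mark transcripts with a mean of 10% or more in either table and grey the sum of all others, and the main form of Foxj3 changes both between libraries and between tables.

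The second deposited transcript table, for which reads were matched to an index of transcripts, gave another view of the same libraries. Its TPM were lower over all genes, by 0.93, 0.80 and 0.81 (median, log2) in libraries 1, 2 and 3. Relative to that shift none of the 10 members lay over 1.5-fold away on 1 side in each library, where 9.0% of all 12183 detected genes did. Foxn3 came nearest, at 1.54, 1.47 and 1.44 times the median ratio. The 3 highest genes kept their order in this table, with means of 128 TPM for Foxp1, 76.5 for Foxn3 and 13.8 for Foxo1. Foxp4 had 0.990 TPM in library 1 there, so that 9 of the 10 genes reached 1 TPM in every library.

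Shares of some transcripts also differed between the tables. Foxn3-201 took 38.5%, 29.1% and 27.7% in the second table, and the 405-base Foxn3-214 took 23.6%, 31.6% and 33.9%. Foxj3-201 led its gene there with 32.7%, 36.7% and 60.7%, against 36.9%, 14.7% and 2.86% for Foxj3-202, and so the main form of Foxj3 differed between tables. For Foxp1 the incomplete Foxp1-218 led with 17.6% ± 3.35, level with Foxp1-228 at 17.3% ± 2.94. Foxk2-201 took 74.6% ± 9.27, below its share in the first table.

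The last table, of whole-number counts for the older GENCODE M4 annotation, gave far fewer counts for most of these genes. Foxo3 had 3, 4 and 3 counts in it, beside 287, 308 and 297 in the main table, and Foxk1 28, 22 and 31, beside 368, 520 and 550. Foxn3 had 242, 466 and 465 counts. Foxp1 was close to its level in the main table, with 3519, 3623 and 3440 counts. Relative to the median gene, 8 of the 10 members were more than 2-fold lower in the M4 table in every library, beside 15.3% of the 10725 genes compared. The exceptions were Foxp1, whose ratio of M4 to main-table counts was 0.739 to 0.767 of that of the median gene, and Foxk2, with 44, 67 and 37 counts and a ratio of 0.352 to 0.533 on the same scale. The cause was not tested, and levels of these genes from the M4 table cannot be set beside those given above.

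**Figure D4:**
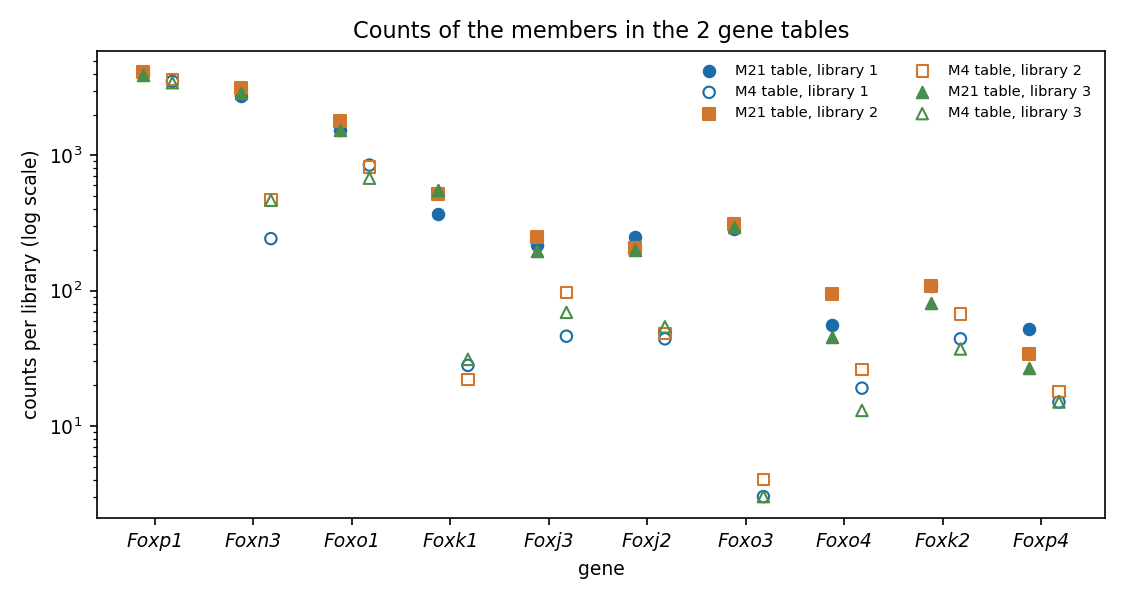
Counts per library on a log axis for the 10 genes in the main M21 gene table (filled) and the M4 gene table (open), coloured by library. Foxp1 is nearly level in both, and Foxo3 is at 287 to 308 counts in the first and at 3 or 4 in the second.

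The genes that act on FOXO proteins were expressed almost without exception. Of 26 genes of upstream signalling 24 were detected, with the kinase Stk4 at 140 ± 44.9 TPM, the PI3K catalytic subunit Pik3cd at 115 ± 37.4, the phosphatase Inpp5d (SHIP1) at 113 ± 30.3 and the PI3K regulatory subunit Pik3r1 at 68.7 ± 18.2 (SD, n = 3). Of the AKT genes, Akt2 had 39.0 ± 7.01 TPM and Akt1 12.4 ± 0.780. The phosphatase Phlpp2 and the PI3K subunit Pik3cb were not detected, at 0.730 and 0.540 TPM. In the spread test, on scaled counts, 20 of the 26 were called, beside 54.5% of all genes. Of the 26 tested, 15 were called with library 1 lowest, beside 23.9% of all genes tested, and 3 with it highest, beside 24.2%. Scaled within bins of gene length, 15 of the 26 were called, beside 44.6% of all genes. The direction of library 1 within bins was not counted for the gene lists.

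All 7 genes of the 14-3-3 proteins, the cytoplasmic anchors of phosphorylated FOXO, were detected. They ran from Ywhaz at 534 ± 27.3 TPM, through Ywhae at 319 ± 14.9, Ywhaq at 167 ± 5.65, Ywhah at 151 ± 6.09, Ywhab at 52.4 ± 6.01 and Ywhag at 34.4 ± 10.4, to Sfn at 22.1 ± 5.98. In scaled counts all 7 differed between libraries, beside the 54.5% of all genes. In the same scaled counts library 1 was the highest in 4 and the lowest in 2, where 24.2% and 23.9% of all genes were called so. In TPM, however, Ywhaz, Ywhae and Ywhah were lowest in library 1. All 7 were called within bins of gene length too, beside 44.6% of all genes.

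Enzymes that modify FOXO proteins were all detected too, 10 of 10. The deacetylase Sirt2 had 94.4 ± 5.70 TPM, the arginine methyltransferase Prmt1 85.5 ± 7.09, the acetyltransferase Crebbp 62.3 ± 8.56 and the ubiquitin ligase Stub1 54.1 ± 4.97. Mdm2 had 33.2 ± 10.7, the deubiquitinase Usp7 28.6 ± 7.14, and the acetyltransferases Ep300 and Kat2b 11.9 ± 2.55 and 11.7 ± 3.49. Sirt1 at 4.83 ± 0.336 and Skp2 at 4.54 ± 1.44 TPM were the lowest. In the spread test 6 were called, near the 54.5% of all genes. Of the 10, 4 were called with library 1 lowest and 2 with it highest, beside 23.9% and 24.2% of all genes. Within bins of gene length 3 were called, beside 44.6% of all genes.

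Of 29 genes known as FOXO targets 28 were detected. Among the highest were the autophagy gene Map1lc3b with 400 ± 42.2 TPM, the thioredoxin inhibitor Txnip with 315 ± 32.04 and the lymph node homing receptor Ccr7 with 270.2 ± 29.6. Irs2, an insulin receptor substrate, was the lowest and was not detected, at 0.520 TPM. Of the list 20 were called in the spread test, beside 54.5% of all genes, 6 with library 1 lowest and 6 with it highest, beside 23.9% and 24.2%. Within bins of gene length 22 were called, beside 44.6% of all genes. The list is of genes named in other work, and their levels here do not show which of them FOXO proteins bound.

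The corepressors of FOXP proteins were detected in full, 15 of 15, from the deacetylase Hdac1 at 261 ± 25.9 TPM, the histone chaperones Rbbp4 at 195 ± 9.43 and Rbbp7 at 87.2 ± 7.32 and the NuRD subunit Mta2 at 84.2 ± 21.5 down to Ctbp2 at 4.23 ± 1.97. In the spread test 9 were called, near the 54.5% of all genes. Of the 15, 3 were called with library 1 lowest and 4 with it highest, beside 23.9% and 24.2% of all genes. Within bins of gene length 10 were called, beside 44.6% of all genes. Of 14 partners of FOXK and FOXN3 proteins 13 were detected. They were led by Snw1 (SKIP), a corepressor partner of FOXN3, at 195 ± 1.62 TPM, the glycosyltransferase Ogt at 150.1 ± 41.2, Sin3b at 77.4 ± 2.94 and the BAP1 cofactor Asxl2 at 42.7 ± 7.88, and Asxl3, with 0.0367 TPM, was not detected. Of the 13 with enough counts 7 were called, near the 54.5% of all genes. Of the 13 tested, 6 were called with library 1 lowest, beside 23.9% of all genes tested, and 1 with it highest, beside 24.2%. Of the same 13 genes, 7 were called within bins of gene length, beside 44.6% of all genes. The medians of the lists ran from 12.7 TPM for upstream signalling to 151 TPM for the 14-3-3 genes, beside 20.1 TPM over all detected protein-coding genes.

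The protein-coding genes nearest to Foxp1 and Foxn3 in level over the 3 libraries were found by the Euclidean distance of log2(TPM + 1). For Foxp1 they were Cnp, at a distance of 0.0971, Srrm2, at 0.113, and Gbp4, at 0.115. For Foxn3 they were Gbp9, at 0.0603, Ivns1abp, at 0.0619, and Ddx42, at 0.124. It rests on 3 libraries of 1 biological replicate and describes likeness in level.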

How the data were processed

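Each of the 3 libraries has 4 deposited tables. The gene table holds expected counts and TPM, and its transcript table the percent of the gene's TPM per transcript, both made by the authors from an alignment to the mm10 GENCODE M21 transcriptome, per the deposited readme. The second transcript table holds the authors' estimated counts and TPM from a transcript index. The last table holds whole-number counts deposited for GENCODE M4. No source used here names the tools or their versions.

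From these, detection was set at 1 TPM in every library. Rounded expected counts of genes with 30 or more over the libraries entered a chi-square test of homogeneity against TMM-scaled totals (edgeR 4.0.16, R 4.3.3), with Benjamini-Hochberg adjustment over all genes and a threshold of 0.05. Entries that are not genes held 0.117% to 0.135% of the counts and were left out. The labels call the libraries technical replicates of 1 biological replicate and do not say whether the RNA was prepared separately, so a p-value speaks only of differences among the 3 libraries. Intervals and floors (3 counts) cover counting error only. M4 counts and second-table TPM were centred on the median ratio. Libraries were also simulated with counting error only, and with changes in library 1 only. In them the test called 11 of 12874 unchanged genes, 57 of 100 changed 1.5-fold and 82 of 100 changed 2-fold, of 13074 genes. Its rate of false calls in the deposited libraries, which can vary in other ways, was not tested. Named are all members, detected forkhead genes, and of each list the 4 highest, the lowest and any undetected gene, or all of lists of 10 or fewer, and Akt1, Akt2, Foxo6, Foxp2 and Foxm1 beside the rule. Some items that the rule or the sequence display would name are not reported here. The members and lists were chosen with earlier results of these data known. Python 3.11.15 with pandas 2.3.3 and scipy 1.17.1 was used.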

Additional observations from a re-analysis of the deposited data

How the results depend on the processing

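Of the members, the same 6 differed between libraries with DESeq2 1.42.0 size factors as with TMM. With total counts 5 did, with Foxo1 in place of Foxp4 and Foxj2 (56.2% of all genes). With the second table's estimated counts 5 of the 6 did, without Foxp4 (47.8%), and with no low-count filter 5, without Foxj2 (28.2%). With M4 counts Foxo1, Foxk2, Foxn3 and Foxj3 did (63.7%), and Foxo3 had too few counts. Leaving out 1 library in turn gave 3 to 4 members, against 6, and 2106 to 6012 genes, against 7122, the fewest genes without library 1. Foxo1's share of FOXO TPM was 70.3% in the second table, 71.9% from posterior mean TPM and 81.8% of expected counts, which are not per length. Foxp1's share of its family was 82.7% in the second table and 89.8% of expected counts. Mean TPM moved by more than 1 SD for 8 of 10 members in the second table, whose TPM were lower over all genes and were not centred here. With posterior means it did for 3. Leaving out 1 of 3 libraries cannot move a mean by more than 1 SD, so those runs do not test the means. Foxo4, Foxk2 and Foxp4, with under 110 counts a library, and the transcript shares of Foxj3 and Foxp4 are limited by depth. No paired analysis was possible because there is 1 group.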
